A study of Homo sapiens with 22 samples.

Results

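The genes for glutamate and GABA receptor subunits were followed through 22 RNA-seq libraries of LUHMES cells. Members were every gene of the count table whose symbol names a subunit of an AMPA, kainate, NMDA or delta receptor, a metabotropic glutamate receptor, or a GABA-A or GABA-B receptor. This gave 45 of the 34679 genes in the table: 4 AMPA, 5 kainate, 7 NMDA, 2 delta, 8 metabotropic glutamate, 17 GABA-A and 2 GABA-B receptor genes. GABRG1 and GABRQ were not analysed here.

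LUHMES is an established human cell line from embryonic mesencephalon that can be differentiated into postmitotic neurons with dopaminergic features. The 6 groups were wild-type cells left untreated (4 libraries), wild-type cells given 6-hydroxydopamine (6-OHDA; 4 libraries), cells overexpressing alpha-synuclein left untreated (4 libraries), alpha-synuclein cells given 6-OHDA (4 libraries), and alpha-synuclein cells given 6-OHDA with quercetin (3 libraries) or with rutin (3 libraries). 6-OHDA is a dopamine analogue that enters cells through catecholamine transporters and oxidises, and alpha-synuclein is the main protein of Lewy bodies. Quercetin is a plant flavonol, and rutin is the same flavonol carrying a disaccharide. The sources used here state no dose, no time, no promoter for alpha-synuclein and no clonality of the cells. The labels do not tie the libraries of a group to separate cultures. The p-values therefore cover the spread among these libraries only, and part of that spread may be technical.

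Levels are given in CPM, the count scaled to a library of 1e6 counts. TH, which catalyses the limiting step towards dopamine, was present at a mean of 373 CPM in untreated wild-type cells. The dopaminergic regulators PITX3, FOXA2 and LMX1A were at 0 in every untreated library. They belong to a list of 9 dopaminergic markers, of which 6 held enough counts over the 22 libraries to be tested. The 12 libraries of untreated cells and of wild-type cells given 6-OHDA were named for sequencing lane 1 and the other 10 for lane 2. Lane and treatment therefore cannot be told apart in the 6-OHDA comparison of alpha-synuclein cells, nor lane and genotype within 6-OHDA cells. Library totals ran from 1.87 M to 20.67 M counts, where M stands for 1e6. Replicate 4 of the alpha-synuclein cells given 6-OHDA stood apart: its score on the first principal component was -1.47, against 35.8 to 45.3 for the other treated libraries and -76.4 to -53.5 for untreated ones. Some of the results that use this library are also given without it.

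Glutamate acts on ionotropic receptors, which are tetrameric cation channels, and on metabotropic receptors, which signal through G proteins. AMPA receptors carry most fast excitatory current, kainate receptors modulate it, and NMDA receptors need GRIN1 in every channel and admit calcium. GABA-A receptors are pentameric chloride channels, and GABA-B receptors are obligate pairs of GABBR1, which binds GABA, and GABBR2, which couples to the G protein. In the midbrain these receptors are the route by which glutamatergic and GABAergic inputs set the firing of dopaminergic neurons.

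A member was counted as detected in a group when at least 3 of its libraries held 3 or more counts. By this rule 31 of the 45 members were detected in untreated wild-type cells, 27 in wild-type cells with 6-OHDA, 38 in untreated alpha-synuclein cells, 32 in alpha-synuclein cells with 6-OHDA, 34 with quercetin added and 30 with rutin added. In all, 38 were detected in some group and 23 in every group. The 7 detected in no group were the GABA-A subunits GABRA3, GABRA4, GABRA6, GABRB1 and GABRB2 and the NMDA subunits GRIN2A and GRIN3A. Depth bears on these counts, since 3 counts corresponded to 0.167 CPM in the deepest library and to 1.49 CPM in the shallowest. The untreated alpha-synuclein libraries, with the most detected members, had totals of 8.11 M to 20.67 M counts. Those of wild-type cells with 6-OHDA, with the fewest, had 1.87 M to 12.64 M. GRM5, which encodes a postsynaptic receptor that couples to phospholipase C, was detected by this rule in the untreated alpha-synuclein and the quercetin groups. With 1 count as the minimum it was also detected in both genotypes given 6-OHDA alone, and its highest group mean, 0.609 CPM, was in wild-type cells with 6-OHDA.

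Levels were compared between genes per kilobase of each gene's median annotated transcript. In untreated wild-type cells the set was led by GRM2 at 149 ± 10.7 CPM per kilobase (SD, n = 4), GRM4 at 110 ± 10.2, GRIA2 at 96.3 ± 7.1 and GRIK5 at 87.1 ± 6.25. GRM2 and GRM4 encode receptors that lower cyclic AMP, GRIA2 the AMPA subunit that makes the channel nearly impermeable to calcium, and GRIK5 a kainate subunit that works only together with GRIK1, GRIK2 or GRIK3. Lower down were GRIN2D at 32.6 ± 2.57 and GABBR1 at 14.1 ± 4.51. The libraries' ranges overlapped between GRM4 and GRIA2 and between GRIA2 and GRIK5, and the order of these genes depended on the length used: per kilobase of the longest transcript GRM2 still led, and GRIK5 stood at 82.5, GRIA2 at 59.0 and GRM4 at 54.2 CPM. GRIN1, the obligatory NMDA subunit, was at 2.46 ± 0.133 CPM per kilobase, against 32.6 ± 2.57 for its partner GRIN2D.

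**Figure D1:**
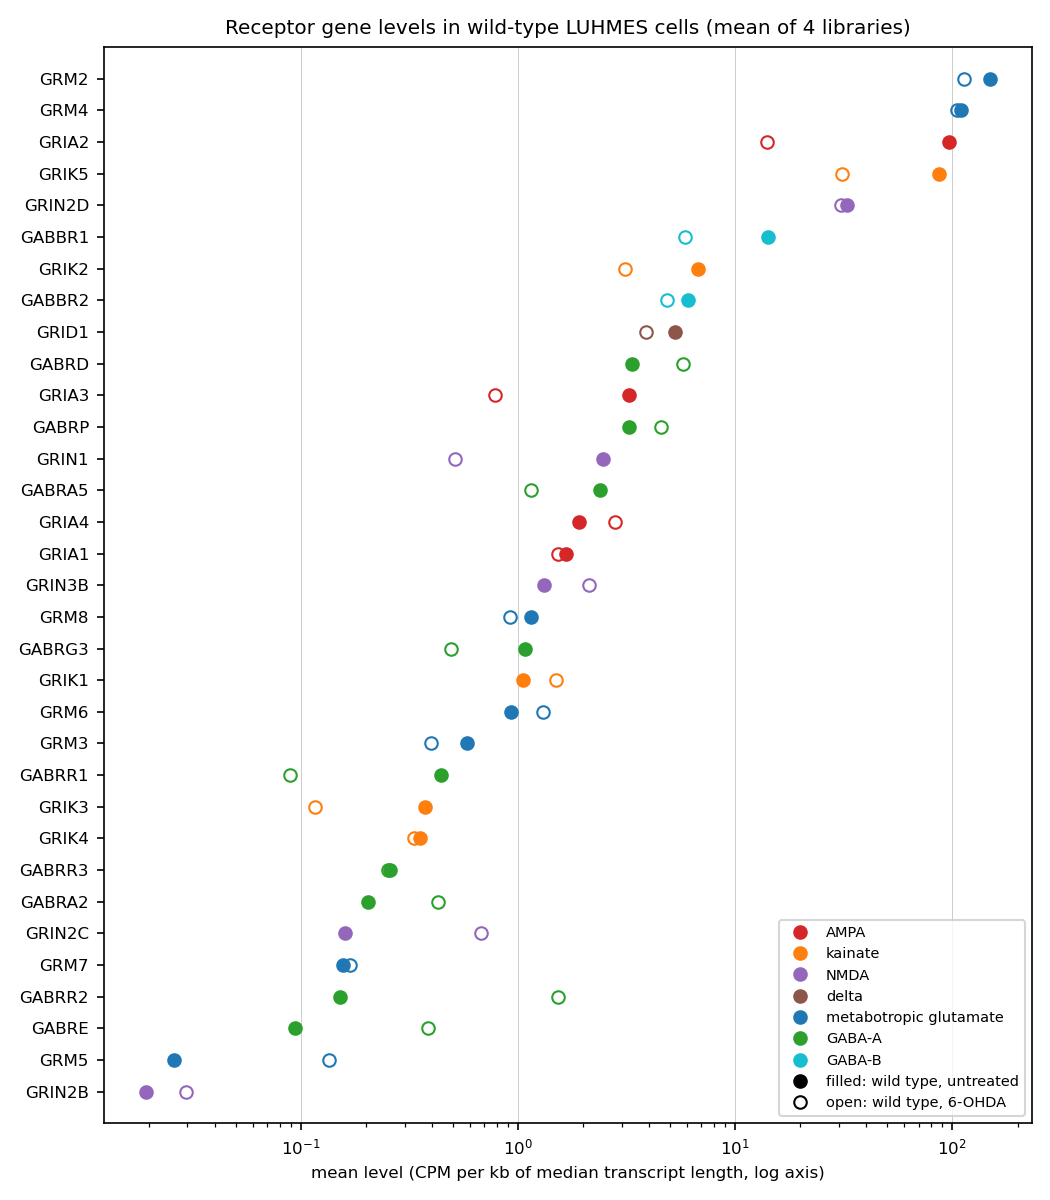
Mean level of receptor genes in wild-type cells, in CPM per kilobase of median transcript on a log axis, ordered by the untreated mean; filled points are untreated cells, open points cells given 6-OHDA (4 libraries each), and colours are receptor classes. GRM2 (149), GRM4 (110), GRIA2 (96.3) and GRIK5 (87.1) lie above the other members when untreated.

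Receptor classes were dominated by few genes. As a share of its class's summed level per kilobase in untreated wild-type cells, GRIA2 made up 93.4 ± 0.669% of the AMPA genes (SD, n = 4), GRIK5 made up 91.0% of the kainate genes and GRIN2D made up 89.0% of the NMDA genes. GRM2 (57.0%) and GRM4 (41.9%) together held nearly all of the metabotropic glutamate signal, and GABBR1 held 68.6% of the GABA-B signal. The markers of GABAergic neurons themselves were near or at 0: GAD2 had no count in any library, and GAD1 and GAD2 summed to at most 0.526 CPM. SLC17A6, a vesicular glutamate transporter, was at a mean of 455 CPM in untreated wild-type cells.

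6-OHDA changed the receptor genes in both directions in wild-type cells. Of the 33 members that passed the low-count filter, 17 changed at an adjusted p under 0.05 (edgeR quasi-likelihood test, Benjamini-Hochberg adjustment over all 16601 genes tested), 7 upward and 10 downward. That is 51.5% of the tested members, where 52% of all tested genes changed (25.8% upward and 26.2% downward), so the members changed about as often as other genes. GRIA2, GRIK5, GRIK2, GRIN1 and GABBR1 were the members that fell with the smallest adjusted p, and GABRR2 had the smallest of those that rose. The median log2 difference of the tested members was -0.12, against 0.07 over all tested genes. The 12 members that did not pass the filter (GABRA3, GABRA4, GABRA6, GABRB1, GABRB2, GABRE, GABRR1, GABRR3, GRIN2A, GRIN3A, GRM5 and GRM7) never reached more than 2.32 CPM in any library.

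In alpha-synuclein cells 21 of the 33 tested members changed with 6-OHDA, 6 upward and 15 downward. This was 63.6% of them, against 47.1% of all tested genes. Of all tested genes 22.9% rose and 24.2% fell. The median of the tested members was -0.09, against 0.05 over all genes. Without replicate 4 of the treated group there were again 21 calls, 8 upward and 13 downward. GRIN2C and GRM3 were among the calls lost, and GABRA2, GABRD and GRM6 were gained. In that fit 8520 of all 16431 tested genes were called, 4076 upward and 4444 downward, and GRIN2B was not tested.

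The comparisons of the 2 genotypes share no library. In both, 10 members fell (GABBR1, GABRA5, GRIA2, GRIA3, GRID1, GRIK2, GRIK3, GRIK5, GRIN1 and GRM2) and 5 rose (GABRP, GABRR2, GRIA4 and GRIN2C among them), and 0 moved in opposite directions. Of all tested genes 52% changed in wild-type cells and 47.1% in alpha-synuclein cells. How many of them changed in both was not counted, so these numbers do not set the members apart from other genes. Calls were made in wild-type cells alone for GABRD and GRIN3B, and in alpha-synuclein cells alone for 6 members, among them GABRG3, GRIK1, GRIN2D, GRM3 and GRM4. A call in a single genotype does not show that the genotypes differ, and that difference is tested further on. Another 10 tested members passed in neither, among them GABBR2 and GRIA1.

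Scaling bears on the split of directions. When libraries were scaled by their totals alone, an alternative added after the data were seen, the median log2 difference over all genes moved from 0.07 to 0.35 in wild-type cells and from 0.05 to 0.33 in alpha-synuclein cells. The calls among members then became 11 upward and 8 downward in wild-type cells and 11 upward and 11 downward in alpha-synuclein cells. Over all 16601 tested genes this scaling gave 6546 upward and 2868 downward calls in wild-type cells. In alpha-synuclein cells it gave 6662 upward and 2258 downward. No called member changed sign, while GRM4, GRIN2D, GRIK4 and GRM8 in wild-type cells and GRIA1 and GRM8 in alpha-synuclein cells, none of them called with TMM scaling, did. GRM4 and GRM6 in wild-type cells and GABBR2, GABRA2, GABRD and GRM6 in alpha-synuclein cells were among the calls gained, all upward. GRM2 and GRID1 lost their call in wild-type cells, and GABRA5, GRIA3, GRIK2 and GRM3 lost theirs in alpha-synuclein cells.

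**Figure D2:**
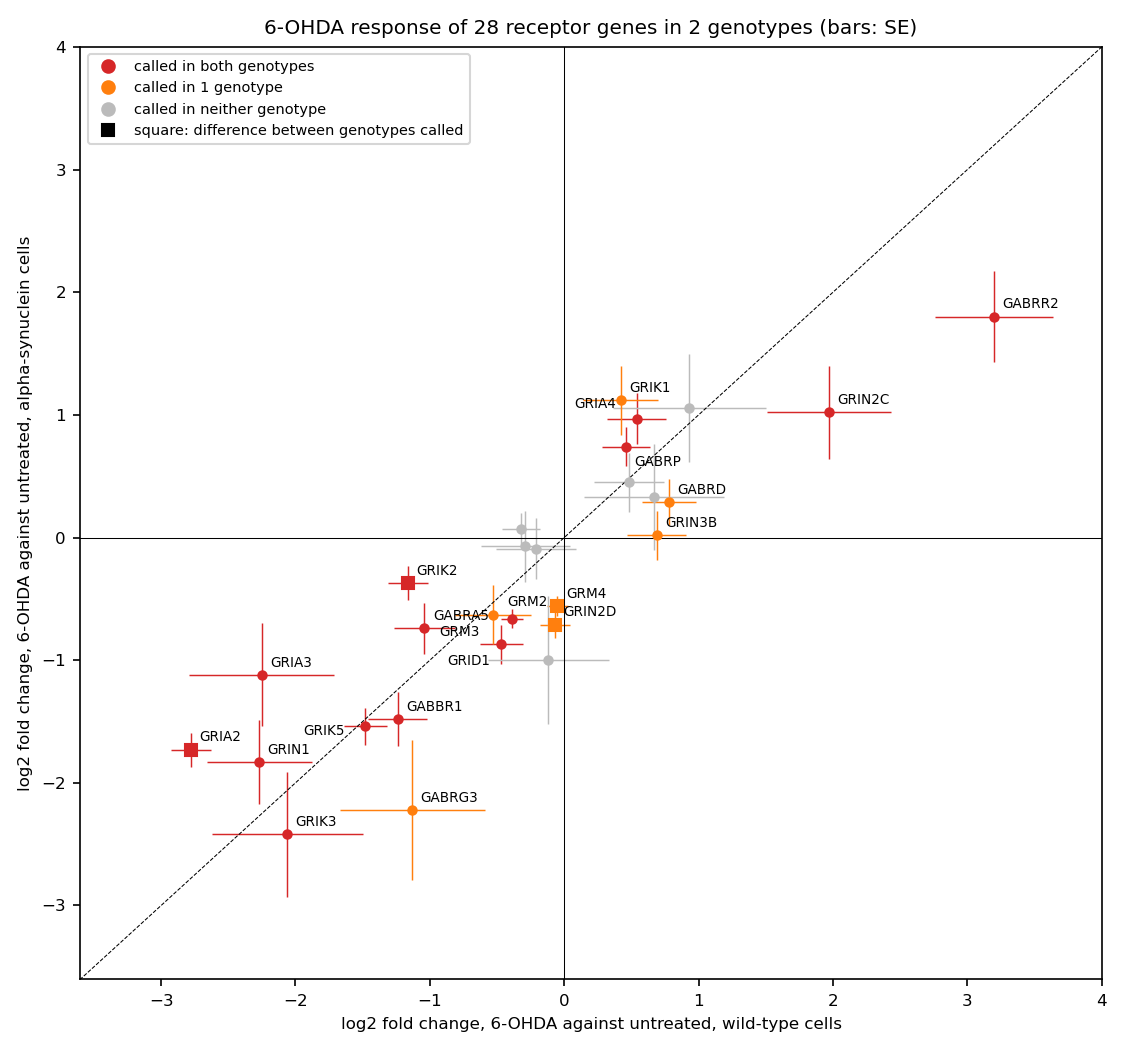
Log2 difference with 6-OHDA in wild-type cells (x axis) against that in alpha-synuclein cells (y axis) for 28 of the 33 tested members; bars are standard errors, colours mark calls in both, 1 or neither genotype, squares mark a called difference between genotypes, and the dashed line is equality. GRIA2 lies at -2.78 and -1.73, GRIK5 at -1.48 and -1.54, and GABRR2 at 3.20 and 1.80.

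Markers of the cells were read beside all tested genes, of which 52% changed with 6-OHDA in wild-type cells and 47.1% in alpha-synuclein cells. Of all tested genes 25.8% rose and 26.2% fell in wild-type cells, and 22.9% and 24.2% in alpha-synuclein cells. The summed level of 8 pan-neuronal genes was 7120 to 7790 CPM in untreated wild-type libraries and 2680 to 2900 CPM with 6-OHDA. In alpha-synuclein cells it was 6110 to 7740 CPM and then 3020 to 4530 CPM. None of the 8 was at 0, and 6 fell and 2 rose in wild-type cells, against 4 and 1 in alpha-synuclein cells. By library totals alone 4 fell and 2 rose in wild-type cells, and 4 and 4 in alpha-synuclein cells. That scaling gave 2868 lower and 6546 higher of all 16601 tested genes in wild-type cells. In alpha-synuclein cells it gave 2258 and 6662. Of 6 tested dopaminergic markers 2 fell and 1 rose in wild-type cells, and 4 fell and 1 rose in alpha-synuclein cells. Of 2 tested glutamatergic markers 1 fell in wild-type and 2 fell in alpha-synuclein cells, and their summed level went from 493 to 555 CPM to 153 to 187 CPM and from 399 to 504 CPM to 150 to 301 CPM. Of 3 tested oligodendrocyte markers MBP and OLIG2 fell in both genotypes, and of 3 tested astrocyte markers GFAP and ALDH1L1 rose in both while GJA1 fell in wild-type cells. The summed level of the 5 astrocyte markers overlapped between the groups of each genotype, with means of 46.8 CPM untreated and 40.9 CPM treated in wild-type cells and of 46.8 and 46.0 CPM in alpha-synuclein cells. The summed oligodendrocyte level went from 74.0 to 84.0 CPM to 34.4 to 64.0 CPM in wild-type cells and from 71.5 to 93.9 CPM to 30.7 to 51.9 CPM in alpha-synuclein cells, and MAG was at 0 in the untreated groups. Of 4 tested markers of dividing or progenitor cells, HES1 rose and MKI67 fell in both genotypes, and microglial markers summed to at most 7.43 CPM in these groups. The part of these shifts in the receptor values was not tested. In bulk RNA, fewer cells of a type and less RNA per cell cannot be told apart.

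Promoter sequence is shown for 3 members that fell in both genotypes and for GABRR2, which rose in both; these were chosen after their values were seen. Each is the 250 bases before a RefSeq transcript start, on GRCh38.p14, written in the direction of the gene. None overlaps an exon that GENCODE 29 annotates for the same gene, and exons of other genes were not checked. The windows are chr4:157220369-157220618 (plus strand, GRIA2), chr3:51706818-51707067 (plus strand, GRM2), chr19:42070207-42070456 (minus strand, GRIK5) and chr6:89315300-89315549 (minus strand, GABRR2). Capitals mark matches on either strand to 6 searched patterns.
GRIA2: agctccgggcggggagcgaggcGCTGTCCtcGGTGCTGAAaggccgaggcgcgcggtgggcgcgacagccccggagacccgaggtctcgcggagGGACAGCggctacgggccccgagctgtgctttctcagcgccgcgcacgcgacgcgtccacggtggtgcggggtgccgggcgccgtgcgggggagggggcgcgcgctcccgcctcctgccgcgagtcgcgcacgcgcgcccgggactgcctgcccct
GRM2: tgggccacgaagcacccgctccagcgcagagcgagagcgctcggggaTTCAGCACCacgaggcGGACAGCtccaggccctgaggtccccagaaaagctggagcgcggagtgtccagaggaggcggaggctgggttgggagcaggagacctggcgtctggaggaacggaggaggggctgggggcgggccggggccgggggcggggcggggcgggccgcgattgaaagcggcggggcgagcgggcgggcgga
GRIK5: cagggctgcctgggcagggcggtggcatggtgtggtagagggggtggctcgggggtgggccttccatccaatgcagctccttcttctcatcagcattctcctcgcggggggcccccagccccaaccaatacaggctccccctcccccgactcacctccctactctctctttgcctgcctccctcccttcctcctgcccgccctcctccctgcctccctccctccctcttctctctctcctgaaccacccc
GABRR2: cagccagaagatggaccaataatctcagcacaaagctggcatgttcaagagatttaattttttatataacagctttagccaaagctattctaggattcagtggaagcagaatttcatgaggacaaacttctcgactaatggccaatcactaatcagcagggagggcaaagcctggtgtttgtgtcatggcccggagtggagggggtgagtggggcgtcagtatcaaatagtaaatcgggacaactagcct
The patterns were the cyclic AMP response element (TGACGTCA, in 1.65% of the 35116 RefSeq promoters of this length), the AP-1 site (TGANTCA, 6.57%), the core of the antioxidant response element (TGACNNNGC, 10.9%), the CEBP-ATF site (TGATGNAA, 3.14%), and the left and right elements of the site of REST, a repressor of neuronal genes (TTCAGCACC, 0.288%, and GGACAGC, 4.76%). The AP-1 and antioxidant patterns can overlap. The capitals of GRIA2 and GRM2 are REST elements. RefSeq starts gave 3 windows for GRIA2, of which 1 is shown: the window chr4:157220082-157220331 held 2 matches to the antioxidant pattern and no REST element, and the third held none of the patterns. Both elements on the same strand, at most 10 bases apart, were found in 10 of the 35116 promoters (0.0285%), and GRIA2 (2 bases apart, minus strand) and GRM2 (7 bases apart, plus strand) were among them. The GRIK5 and GABRR2 windows held none of the 6 patterns. Entries existed for 32 of the 45 members, with 49 promoters in all. Of these, 1 held the cyclic AMP element, that of GABBR1, which also fell in both genotypes. The AP-1 site was in 4, the antioxidant core in 6 and the CEBP-ATF site in 1. The left REST element was in 2 and the right in 5. A match describes letters, not binding.

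Among the AMPA genes, GRIA2 and GRIA3 fell and GRIA4 rose in both genotypes. GRIA2 (ENSG00000120251.20, chr4:157204182-157366075, plus strand) was at 353, 305, 316 and 351 CPM in the untreated wild-type libraries and at 49.5, 48.9, 52.4 and 41.7 CPM with 6-OHDA. The treated libraries lay far below all untreated ones, 6.85-fold lower on the fitted scale (log2 difference -2.78 ± 0.15 SE, adjusted p 4.29e-12, edgeR). In alpha-synuclein cells GRIA2 was at 327, 344, 312 and 310 CPM untreated and at 64.1, 105, 91.0 and 129 CPM with 6-OHDA. The groups did not overlap, replicate 4 was the highest treated library, and the fall was 3.31-fold (-1.73 ± 0.14, adjusted p 1.79e-09). Without replicate 4 it was -1.92.

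The other AMPA genes were less abundant. GRIA3 fell from 2.99 to 13.0 CPM to 0.928 to 3.92 CPM in wild-type cells (-2.25 ± 0.54, adjusted p 0.00136, edgeR), with overlap because 1 untreated library was at 2.99. With alpha-synuclein it fell from 7.25 to 12.2 CPM to 1.41 to 8.39 CPM (-1.12, adjusted p 0.0324), and without replicate 4, the library at 8.39, the difference was -1.96. GRIA4 rose, from 5.22 to 6.53 CPM to 7.55 to 10.2 CPM in wild-type cells (0.54, adjusted p 0.0438) and from 2.28 to 5.85 CPM to 6.57 to 8.59 CPM in cells with alpha-synuclein (0.97, adjusted p 0.000547). The wild-type call of GRIA4 was kept in only 6 of the 22 fits that each left out 1 library. GRIA1 was at a mean of 5.17 CPM untreated and 4.77 CPM treated in wild-type cells, and at 5.34 and 5.26 CPM in alpha-synuclein cells, with neither difference called.

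Summed over the 4 genes, the AMPA level was 94.6 to 110 CPM per kilobase in untreated wild-type libraries and 18.0 to 20.9 with 6-OHDA. In alpha-synuclein cells it was 95.5 to 108 untreated and 24.5 to 43.8 treated. The share of GRIA2 in it went from 93.4 ± 0.669% to 73.2 ± 4.74% (SD, n = 4 each) in wild-type cells, where the treated libraries lay between 67.2% and 78.7%. With alpha-synuclein it went from 93.5 ± 0.672% to 82.5 ± 4.28%, with treated libraries between 76.1% and 85.2%. The share of GRIA4 went from 1.86% to 14.6% and from 1.28% to 8.27%. These shares follow from the levels above and were not tested separately.

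**Figure D3:**
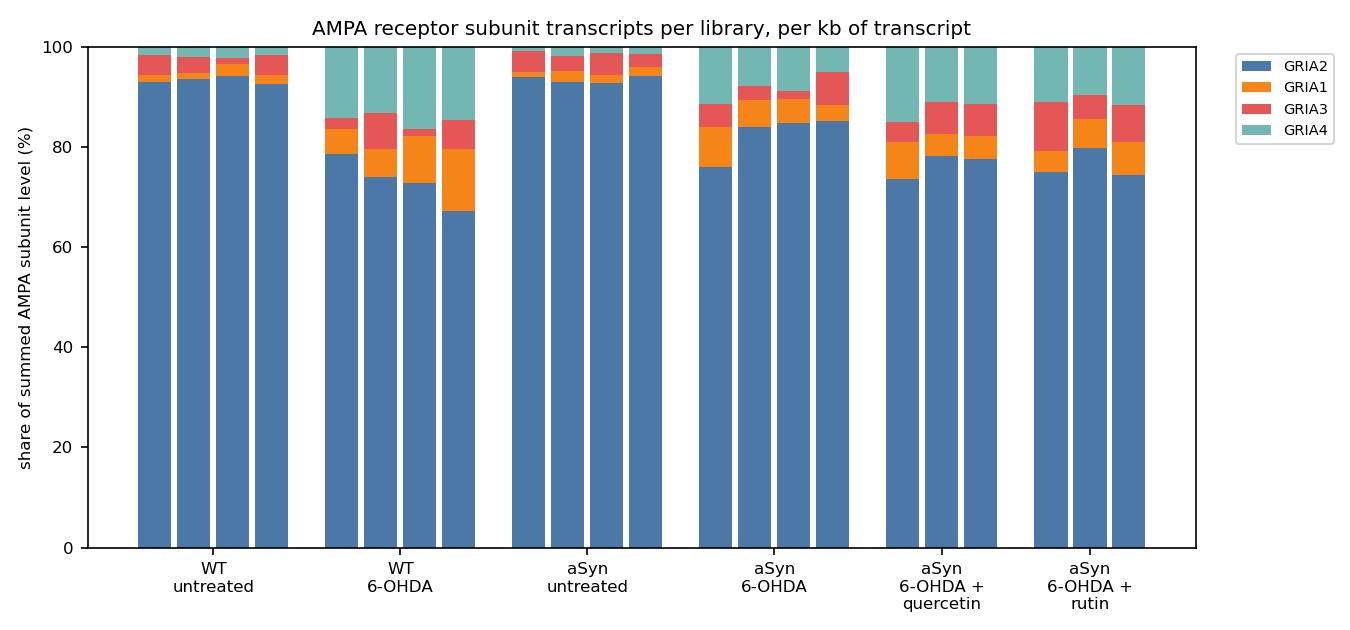
Share of each AMPA gene in the summed AMPA level per kilobase, in percent, for each of the 22 libraries in their 6 groups. GRIA2 averages 93.4% and 93.5% in the untreated groups and lies between 67.2% and 85.2% in the libraries given 6-OHDA alone.

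Among the kainate genes GRIK5, GRIK2 and GRIK3 fell in both genotypes. GRIK5 (ENSG00000105737.9, chr19:41998321-42069498, minus strand) was at 292, 314, 282 and 265 CPM untreated and at 111, 98.1, 112 and 89.3 CPM treated in wild-type cells. The alpha-synuclein libraries were at 338, 262, 275 and 252 CPM untreated and at 77.7, 97.4, 68.2 and 139 CPM treated. Treated and untreated libraries were fully separate in both genotypes, with differences of -1.48 ± 0.16 (adjusted p 5.99e-08, edgeR) and -1.54 ± 0.15 (adjusted p 4.32e-08). Without replicate 4, the highest treated library, the alpha-synuclein value was -1.80.

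GRIK2 (ENSG00000164418.20, chr6:101181257-102070083, plus strand), a subunit that can form channels alone, was at 28.4, 29.3, 27.8 and 31.1 CPM in untreated wild-type cells and at 11.0, 14.8, 14.4 and 13.4 CPM with 6-OHDA. The wild-type groups were separate, and GRIK2 fell 2.24-fold (-1.16 ± 0.15, adjusted p 1.52e-06, edgeR). In alpha-synuclein cells it was at 22.3, 27.7, 25.9 and 22.2 CPM untreated and at 17.1, 17.5, 18.1 and 22.2 CPM treated. Replicate 4 reached the level of an untreated library there, and the fall was smaller (-0.37 ± 0.14, adjusted p 0.0317), or -0.48 without that library. GRIK3 was rare: its 4 wild-type libraries summed to 56 counts untreated and 10 treated, which is 4.44-fold lower on the CPM scale (95% exact interval 2.24 to 9.75, counting error only). In alpha-synuclein cells the sums were 120 and 12 counts. The edgeR adjusted p was 0.00411 in wild-type and 0.000494 in alpha-synuclein cells.

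GRIK1 was called in alpha-synuclein cells only, at 1.57 to 1.90 CPM untreated and 2.21 to 5.37 CPM treated (1.12 ± 0.28, adjusted p 0.002, edgeR). Its exons share 45 bases with BACH1 on the opposite strand, and BACH1 rose by 0.90 in wild-type and 1.02 in alpha-synuclein cells on the log2 scale. No source used here says whether counting used strand, so reads of that stretch cannot be assigned. The part of BACH1 in the GRIK1 value was not tested.

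Among the NMDA genes GRIN1 fell and GRIN2C rose in both genotypes. GRIN1 (ENSG00000176884.15, chr9:137138390-137168762, plus strand) was at 9.78, 10.4, 9.14 and 9.50 CPM in untreated wild-type cells and at 2.10, 1.21, 2.32 and 2.48 CPM with 6-OHDA. All treated libraries were lower, although 3 of them rest on 4 or 5 counts, and the fitted fall was 4.82-fold (-2.27 ± 0.39, adjusted p 4.81e-05, edgeR). Values in alpha-synuclein cells were 13.4, 9.42, 8.43 and 5.99 CPM untreated and 1.33, 1.79, 0.703 and 4.70 CPM treated (-1.83 ± 0.34, adjusted p 0.00014). Replicate 4 was the treated library at 4.70, the other treated libraries held 3 to 8 counts, and without it the difference was -2.88. The exons of GRIN1 share 5 bases with LRRC26.

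GRIN2D (ENSG00000105464.3, chr19:48394875-48444931, plus strand), the most abundant NMDA gene, was at 160, 185, 156 and 162 CPM in untreated wild-type cells and at 163, 174, 146 and 144 CPM treated. These groups overlapped (-0.07 ± 0.11, adjusted p 0.608, edgeR; 95% interval -0.31 to 0.16). The alpha-synuclein libraries were at 229, 180, 195 and 218 CPM untreated and at 105, 123.9, 108 and 161 CPM treated, with no overlap (-0.71 ± 0.11, adjusted p 1.91e-05). As a share of the NMDA level per kilobase, GRIN1 went from 6.74% to 1.54% in wild-type cells and from 5.29% to 1.82% in alpha-synuclein cells, while GRIN2D went from 89.0% to 89.9% and from 90.5% to 89.8%.

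The rarer NMDA genes included members that rose. GRIN2C summed to 17 counts over the untreated and 52 over the treated wild-type libraries, 3.86-fold higher on the CPM scale (95% exact interval 2.20 to 7.12, counting error only; edgeR adjusted p 0.00118). In alpha-synuclein cells its call (1.02, adjusted p 0.0324) was lost without replicate 4 (1.04, adjusted p 0.0551). GRIN3B, a subunit that lowers calcium permeability, rose in wild-type cells from 3.55 to 5.38 CPM to 5.46 to 7.89 CPM (0.69 ± 0.22, adjusted p 0.0112) and stood at 0.02 in alpha-synuclein cells. GRIN3B shares 85 exon bases with TMEM259, which rose by 0.46 in wild-type cells and stood at 0.00 in alpha-synuclein cells. GRIN2B, at means of 0.586 to 0.946 CPM over the 4 groups without flavonoid, was not called.

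GRID1 encodes a delta receptor, a glutamate receptor relative that binds cerebellins across the synapse. It was at 31.6, 32.4, 31.3 and 28.4 CPM in untreated wild-type cells and at 19.8, 19.6, 26.9 and 24.8 CPM with 6-OHDA (-0.47 ± 0.16, adjusted p 0.021, edgeR). With alpha-synuclein it was at 30.1, 24.4, 26.7 and 18.4 CPM untreated and at 11.1, 11.8, 14.8 and 15.5 CPM treated (-0.87 ± 0.16, adjusted p 0.000149). Neither pair of groups overlapped. The wild-type call was lost when replicate 1 or replicate 2 of the treated group was left out.

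Of the metabotropic receptors, GRM2 fell in both genotypes and GRM4 in alpha-synuclein cells. GRM2 (ENSG00000164082.15, chr3:51707070-51718613, plus strand) was at 366, 423, 366 and 400 CPM in untreated wild-type cells and at 312, 305, 296 and 268 CPM treated (-0.39 ± 0.08, adjusted p 0.000202, edgeR). Values in alpha-synuclein cells were 431, 388, 445 and 415 CPM untreated and 232, 277, 254 and 299 CPM treated (-0.66 ± 0.08, adjusted p 4.23e-07). In both genotypes each treated library was below each untreated one.

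GRM4 (ENSG00000124493.13, chr6:34018645-34155622, minus strand) was at 352, 441, 394 and 390 CPM in untreated wild-type cells and at 403, 389, 379 and 342 CPM treated. These overlapped, with a difference of -0.05 (adjusted p 0.595, edgeR; 95% interval -0.22 to 0.11). By library totals alone GRM4 was called higher there (0.23, adjusted p 0.00883), and in alpha-synuclein cells it was lower (-0.28, adjusted p 0.00207). The alpha-synuclein libraries were at 494, 429, 487 and 515 CPM untreated and at 309, 296, 333 and 361 CPM treated, without overlap (-0.56 ± 0.08, adjusted p 5.83e-06). GRM3, at a mean of 2.08 CPM untreated, fell in alpha-synuclein cells (-0.63, adjusted p 0.0372), a call lost without replicate 4 (-0.56, adjusted p 0.157). GRM6 and GRM8 were called in neither genotype with all libraries, at means between 3.54 and 8.41 CPM over the 4 groups without flavonoid.

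GABA-A genes made up 4 of the 7 members that rose in wild-type cells and 3 of the 6 that rose in alpha-synuclein cells. Of the 9 tested GABA-A genes, 4 rose and 1 fell in wild-type cells and 3 rose and 2 fell in alpha-synuclein cells (all tested genes: 25.8% and 22.9% rose). GABRR2 (ENSG00000111886.10, chr6:89257208-89315299, minus strand) encodes a rho subunit, which forms GABA channels best known from the retina. It was close to undetected in untreated wild-type cells, with 2, 1, 1 and 3 counts (0.326, 0.182, 0.187 and 0.324 CPM), and had 32, 10, 4 and 6 counts with 6-OHDA (2.40, 3.02, 1.86 and 2.98 CPM). Summed counts were 9.38-fold higher on the CPM scale (95% exact interval 4.24 to 24.5, counting error only), and the edgeR adjusted p was 2.89e-06. In alpha-synuclein cells the libraries held 5, 2, 8 and 7 counts untreated and 12, 2, 4 and 27 treated, 3.79-fold higher on the CPM scale (2.23 to 6.63). The treated CPM of 1.99, 0.716, 0.938 and 1.53 lay just above the untreated 0.714, 0.138, 0.446 and 0.400 (adjusted p 0.000415). The related GABRR1 did not pass the filter: it held 6, 5, 7 and 17 counts in untreated and 7, 0, 0 and 1 in treated wild-type libraries.

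Other GABA-A genes moved less. GABRP rose in wild-type cells from 6.38 to 9.30 CPM to 8.87 to 13.9 CPM (0.46, adjusted p 0.0391, edgeR), with overlap and a call kept in 9 of 22 fits that left out 1 library. With alpha-synuclein it rose from 6.71 to 8.33 CPM to 9.69 to 15.2 CPM (0.74, adjusted p 0.000865). GABRD, a subunit of receptors outside synapses, rose in wild-type cells from 4.08 to 7.09 CPM to 7.89 to 10.9 CPM (0.78 ± 0.20, adjusted p 0.00281). In alpha-synuclein cells its difference was 0.29 (adjusted p 0.201) with all libraries and 0.48 (adjusted p 0.0279) without replicate 4. GABRA5, an alpha subunit also found outside synapses, fell from a mean of 6.60 to 3.17 CPM in wild-type cells (-1.04, adjusted p 0.000624) and from 5.13 to 2.97 CPM in cells with alpha-synuclein (-0.74, adjusted p 0.00612).

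GABRG3 was called in alpha-synuclein cells (-2.22, adjusted p 0.00298, edgeR), at a mean of 1.12 CPM untreated and 0.273 CPM treated. By the detection rule it was not detected in that treated group, where 3 counts corresponded to 0.17 to 1.07 CPM. Its interaction of genotype and 6-OHDA was not called (-1.1, adjusted p 0.366, edgeR). The alpha subunit GABRA2 passed in neither genotype with all libraries, at 1.06 (adjusted p 0.053) in alpha-synuclein cells.

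Of the GABA-B partners, GABBR1 fell in both genotypes and GABBR2 was called in neither. GABBR1 (ENSG00000204681.11, chr6:29555629-29633976, minus strand) was at 74.4, 52.8, 33.8 and 70.2 CPM in untreated wild-type cells and at 24.4, 29.3, 20.0 and 23.3 CPM treated (-1.24 ± 0.22, adjusted p 7.4e-05, edgeR). Values in alpha-synuclein cells were 73.3, 53.9, 49.5 and 46.4 CPM untreated and 18.9, 18.6, 13.4 and 26.2 CPM treated (-1.48 ± 0.22, adjusted p 8.4e-06). No treated library reached an untreated one. GABBR2 was at 40.9, 32.4, 35.1 and 32.4 CPM untreated and at 29.7, 26.0, 20.4 and 36.7 CPM treated in wild-type cells, with overlap (-0.32, adjusted p 0.0579), and its difference in alpha-synuclein cells was 0.07 (adjusted p 0.674). The share of GABBR1 in the GABA-B level per kilobase went from 68.6% to 55.1% and from 69.5% to 42.9%. GABBR1 shares 722 of its 8470 exon bases with UBD, which had 0 counts in every library, and with OR2I1P.

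**Figure D4:**
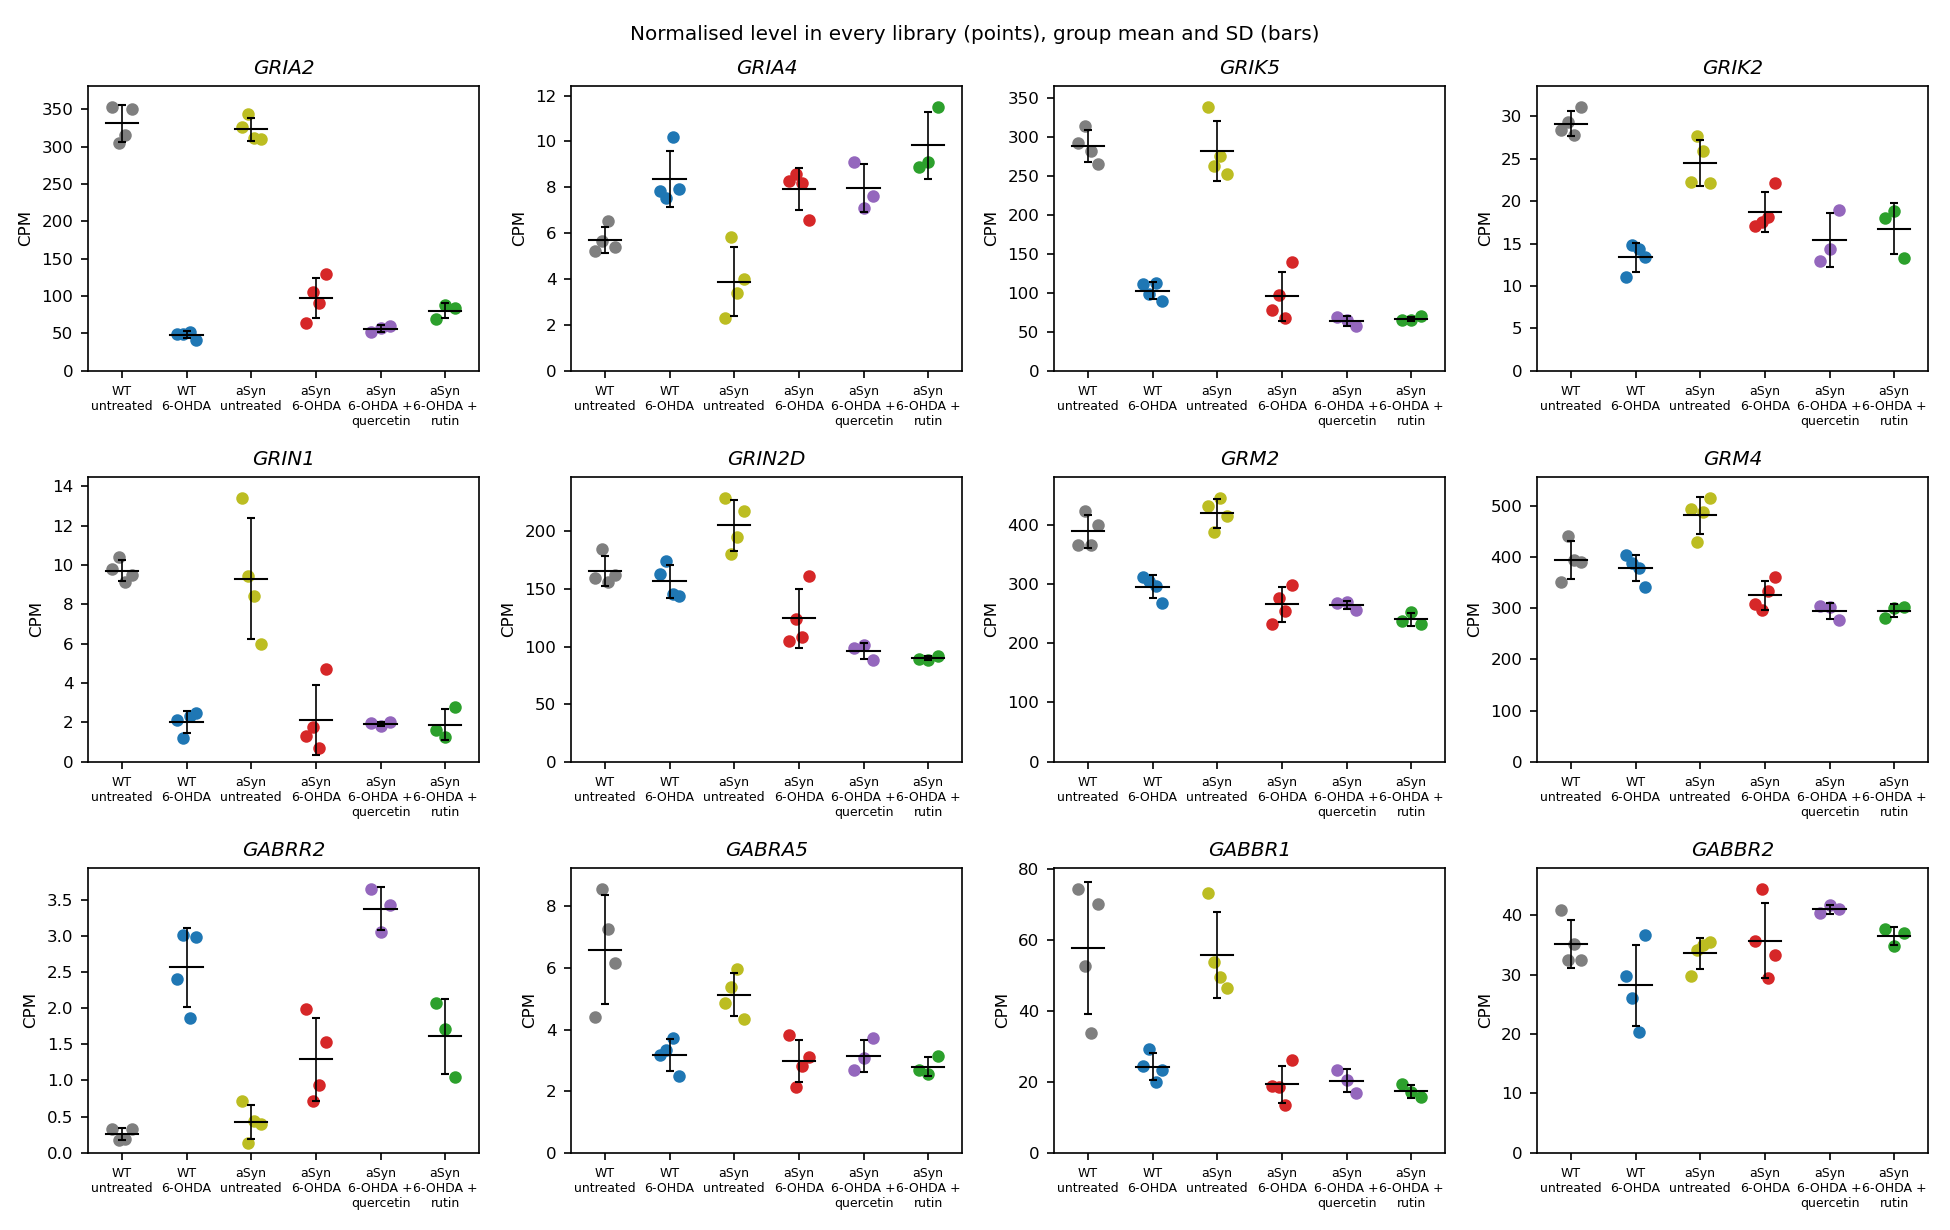
CPM in each of the 22 libraries (points) for 12 receptor genes, by group; each axis starts at 0, and bars are the group mean and SD. GRIA2 lies at 305 to 353 CPM in untreated wild-type libraries and at 41.7 to 52.4 CPM with 6-OHDA, while GABBR2 overlaps between the groups of wild-type cells.

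Genes that work with the receptors were read from 6 lists, beside the 26.2% of all tested genes that fell and 25.8% that rose in wild-type cells, and the 24.2% and 22.9% in alpha-synuclein cells. Of 11 tested AMPA auxiliary subunits, 7 fell and 1 rose in each genotype, with medians of -0.39 and -0.56 against 0.07 and 0.05 over all genes. CACNG7, a TARP that traffics AMPA receptors, fell by 1.30 in wild-type cells and by 1.53 in alpha-synuclein cells on the log2 scale. SHISA6, which keeps AMPA receptors from desensitising, fell by 1.77 and 0.82, SHISA9 by 1.50 and 1.38, and ABHD6, which limits AMPA receptor delivery, by 0.73 and 0.48. Scaled by library totals alone the list split into 5 that fell and 2 that rose in wild-type cells, and 3 and 3 in alpha-synuclein cells. By that scaling 2868 of all 16601 tested genes fell and 6546 rose in wild-type cells. In alpha-synuclein cells 2258 fell and 6662 rose. The same numbers are the background for the library-total counts of the lists below.

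Of 12 tested genes of GABA receptor scaffolding and trafficking, 8 fell and 0 rose in wild-type cells, and 7 fell and 0 rose in alpha-synuclein cells, with medians of -0.55 and -0.53. SHISA7, a GABA-A auxiliary protein, fell by 2.25 and 2.48 on the log2 scale. TRAK1, a motor adaptor, fell by 0.58 and 0.81. PLCL1, which binds GABA-A receptors and phosphatases, fell by 3.77 in wild-type cells, and its difference in alpha-synuclein cells was -0.44 (edgeR adjusted p 0.386). NLGN2, the adhesion protein of inhibitory synapses, fell by 0.51 and 1.18. By library totals alone 7 fell and 3 rose in wild-type cells, and 6 and 1 in alpha-synuclein cells.

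Of 23 tested genes of the excitatory postsynaptic scaffold, 10 fell and 3 rose in wild-type cells, and 8 fell and 1 rose in alpha-synuclein cells, where 52% and 47.1% of all tested genes changed. NSG1, an endosomal protein that recycles AMPA receptors, fell by 1.92 and 1.78 on the log2 scale, the scaffold SHANK2 by 1.11 and 1.23, and DLG3, which binds NMDA receptors, by 1.04 and 0.82. The medians were -0.27 and -0.13, against 0.07 and 0.05 over all genes. By library totals alone they were 0.01 and 0.15, against 0.35 and 0.33 over all genes, with 8 and 6 that fell and 5 and 5 that rose. NETO2, 1 of 2 kainate auxiliary subunits and also counted in the scaffold list, fell by 0.88 and 0.32, the latter a call not made by library totals alone.

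Of 3 tested cerebellins, the ligands of delta receptors, 0 changed in wild-type cells, and CBLN1 fell by 0.70 in alpha-synuclein cells. By library totals alone that call was not made, and 2 cerebellins rose in wild-type and 1 in alpha-synuclein cells. Of 11 tested genes of glutamate and GABA synthesis and transport, 3 rose and 2 fell in each genotype. Of all tested genes 52% changed in either direction in wild-type cells and 47.1% in alpha-synuclein cells. By library totals alone 4 genes of this list rose and 1 fell in wild-type cells, and 6 and 1 in alpha-synuclein cells. SLC17A6 fell by 2.12 and 1.18 on the log2 scale. SLC6A13, a GABA transporter, rose by 2.55 and 1.85, and SLC1A6, a glutamate transporter, rose by 1.07 and 0.81.

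Alpha-synuclein overexpression by itself was compared in untreated cells, within lane 1. No tested member was called, where 0.651% of all tested genes were (0.373% upward and 0.277% downward). At an unadjusted p under 0.05 there were 7 members. How many of all genes reached that unadjusted p was not counted, here or in the later comparisons. DESeq2 called 1 member, GRM4, and 230 of all 16601 tested genes. The estimates ran from -1.09 to 1.30 on the log2 scale, with 95% bounds reaching -1.93 and 2.29, so sizeable differences of the rarer genes were not detectable at this depth. GRIK1 had the smallest p, at 2.61, 3.10, 4.48 and 3.46 CPM in wild-type and at 1.57, 1.58, 1.90 and 1.66 CPM in those with alpha-synuclein (-1.0 ± 0.27, adjusted p 0.106, edgeR). GRM4 was 0.29 higher (adjusted p 0.115). Both passed when replicate 4 of the alpha-synuclein cells with 6-OHDA was left out (adjusted p 0.0342 for GRIK1 and 0.0493 for GRM4). That library is in neither group compared here. It enters through the low-count filter, the scaling, the shared estimate of spread and the adjustment. GRM4 also passed without wild-type replicate 2 (adjusted p 0.0483) or alpha-synuclein replicate 2 (adjusted p 0.0364), the latter together with GRIA4 (-0.77, adjusted p 0.048).

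Among cells given 6-OHDA, where genotype and lane cannot be told apart, 6 of the 33 tested members differed between genotypes (18.2%, against 27.3% of all tested genes), 2 upward and 4 downward (14.4% and 12.9% of all tested genes). GRIA2 was higher in alpha-synuclein cells, at 64.1 to 129 CPM against 41.7 to 52.4 CPM (1.01 ± 0.15, adjusted p 8.51e-05, edgeR), and GRIK2 was higher at a mean of 18.7 against 13.4 CPM (0.54 ± 0.16, adjusted p 0.0128). GRID1 was lower, at 11.1 to 15.5 against 19.6 to 26.9 CPM (-0.72 ± 0.17, adjusted p 0.00359). GRIK4, which encodes a kainate subunit like GRIK5, was lower on 10 against 27 summed counts (3.99-fold on the CPM scale, 95% exact interval 1.87 to 9.24; adjusted p 0.01).

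The other 2 calls were GRIN2D (-0.33 ± 0.11, adjusted p 0.0352, edgeR) and GRM4 (-0.22 ± 0.08, adjusted p 0.0462), whose groups overlapped and whose calls were kept in 10 and 6 of the 22 fits that each left out 1 library. The overlap of both came from replicate 4 of the alpha-synuclein cells. Without replicate 4, GRIN2D stood at -0.49 (adjusted p 0.000986) and GRM4 at -0.28 (adjusted p 0.0141). GRIA2 then stood at 0.82 (adjusted p 0.00024), and GRIK2 lost its call (0.43, adjusted p 0.0604). GRIK5 and GRM2 were among those then called as well, giving 8 members. Without replicate 1 of the wild-type cells with 6-OHDA only 3 members were called.

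The interaction asks whether 6-OHDA acted differently in the 2 genotypes, and 4 of the 33 tested members passed (12.1%, against 21.6% of all tested genes), 2 in each direction (11.2% and 10.5% of all tested genes). GRIA2 fell less in alpha-synuclein cells (difference of differences 1.05 ± 0.20, adjusted p 0.00117, edgeR), as did GRIK2 (0.79 ± 0.21, adjusted p 0.00883). GRM4 (-0.51 ± 0.11, adjusted p 0.00339) and GRIN2D (-0.64 ± 0.16, adjusted p 0.00632) had lower differences in alpha-synuclein cells, where they fell, than in wild-type cells. Without replicate 4 all 4 passed again (0.86, 0.68, -0.57 and -0.80 in the same order), together with GRM2 (-0.33, adjusted p 0.0192). The treated alpha-synuclein group is also the only 1 of these 4 groups on lane 2, so lane and interaction cannot be told apart. Of 8 pan-neuronal markers 5 were above and 1 below in the interaction (median 0.67), the direction of GRIA2 and GRIK2, and of 6 dopaminergic markers 0 were above and 2 below (median -0.54), the direction of GRM4 and GRIN2D. The part of these markers in the receptor values was not tested.

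Quercetin and rutin were each compared with the same 4 libraries of alpha-synuclein cells given 6-OHDA alone, all on lane 2. With quercetin 2 of 33 tested members were called (6.06%, against 2.53% of all tested genes), 1 upward and 1 downward (0.56% and 1.97% of all tested genes). GRIA2 was at 51.3, 57.8 and 60.2 CPM with quercetin, below all 4 libraries without it (64.1, 105, 91.0 and 129 CPM), a difference of -0.79 ± 0.15 (adjusted p 0.0129, edgeR; 95% interval -1.09 to -0.48). GABRR2 was at 3.65, 3.06 and 3.43 CPM, above all 4 (1.99, 0.716, 0.938 and 1.53 CPM), a difference of 1.26 ± 0.33 (adjusted p 0.0412; 0.58 to 1.93). Both differences had the sign of the 6-OHDA difference in the same cells, with which they share the libraries given 6-OHDA alone.

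Without replicate 4 of that shared group, GRIA2 stood at -0.59 (adjusted p 0.0425, edgeR) and GABRR2 at 1.34 (adjusted p 0.118). GRIA2 lost its call without quercetin replicate 2, and GABRR2 kept its call in 13 of 22 fits that left out 1 library. The call of GABRR2 was also lost with no low-count filter (adjusted p 0.0756). DESeq2 gave no adjusted p for GABRR2 and called 3 members, all lower: GRIA2, GRIN2D (-0.38, adjusted p 0.0324) and GRIK5 (-0.59, adjusted p 0.0106). It called 969 genes in all. In edgeR GRIN2D stood at -0.38 (adjusted p 0.0927) and GRIK5 at -0.61 (adjusted p 0.0533). Without replicate 4 of the shared group they stood at -0.22 (adjusted p 0.373) and -0.34 (adjusted p 0.261) in edgeR. When only the quercetin and 6-OHDA libraries entered the fit, 0 of 28 tested members and 2 genes in all were called.

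With rutin 0 of 33 tested members were called, where 0.0% of all tested genes were. At an unadjusted p under 0.05 there were 3 members. DESeq2 called GRIN2D and GRIK5, and 285 genes in all. GRIN2D was at 89.5, 88.6 and 91.8 CPM with rutin, below the 105, 123.9, 108 and 161 CPM without it (-0.48 ± 0.12, adjusted p 0.171, edgeR; 95% interval -0.74 to -0.22). It passed without replicate 1 of the cells given 6-OHDA alone (-0.56, adjusted p 0.0352). Without replicate 4 of those cells, the library at 161 CPM, GRIN2D stood at -0.32 (adjusted p 0.31, edgeR). GRIK5 stood at -0.54 (adjusted p 0.228, edgeR) with all libraries and at -0.27 (adjusted p 0.585) without replicate 4. GRIA2 was at 69.6, 87.5 and 84.5 CPM, within the range of the libraries without rutin (-0.28, adjusted p 0.527; -0.59 to 0.03). GABRR2 was at 2.07, 1.71 and 1.05 CPM (0.28, adjusted p 0.844; -0.47 to 1.04).

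Set against each other, the flavonol and its glycoside formed 1 pair of compounds, with no dose or time stated in the sources used here. No tested member was called between them (0.00602% of all tested genes were), 2 members had an unadjusted p under 0.05, and DESeq2 called 0. GRIA2 was lower with quercetin than with rutin by -0.50 ± 0.16 (adjusted p 0.325, edgeR; 95% interval -0.83 to -0.18), and the 3 quercetin libraries lay below the 3 rutin libraries. GABRR2 was higher by 0.97 ± 0.35 (adjusted p 0.378; 0.25 to 1.69), again without overlap. Over the 33 members the 95% bounds reached from -1.85 to 2.77, so these libraries do not show that the compounds act alike.

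**Figure D5:**
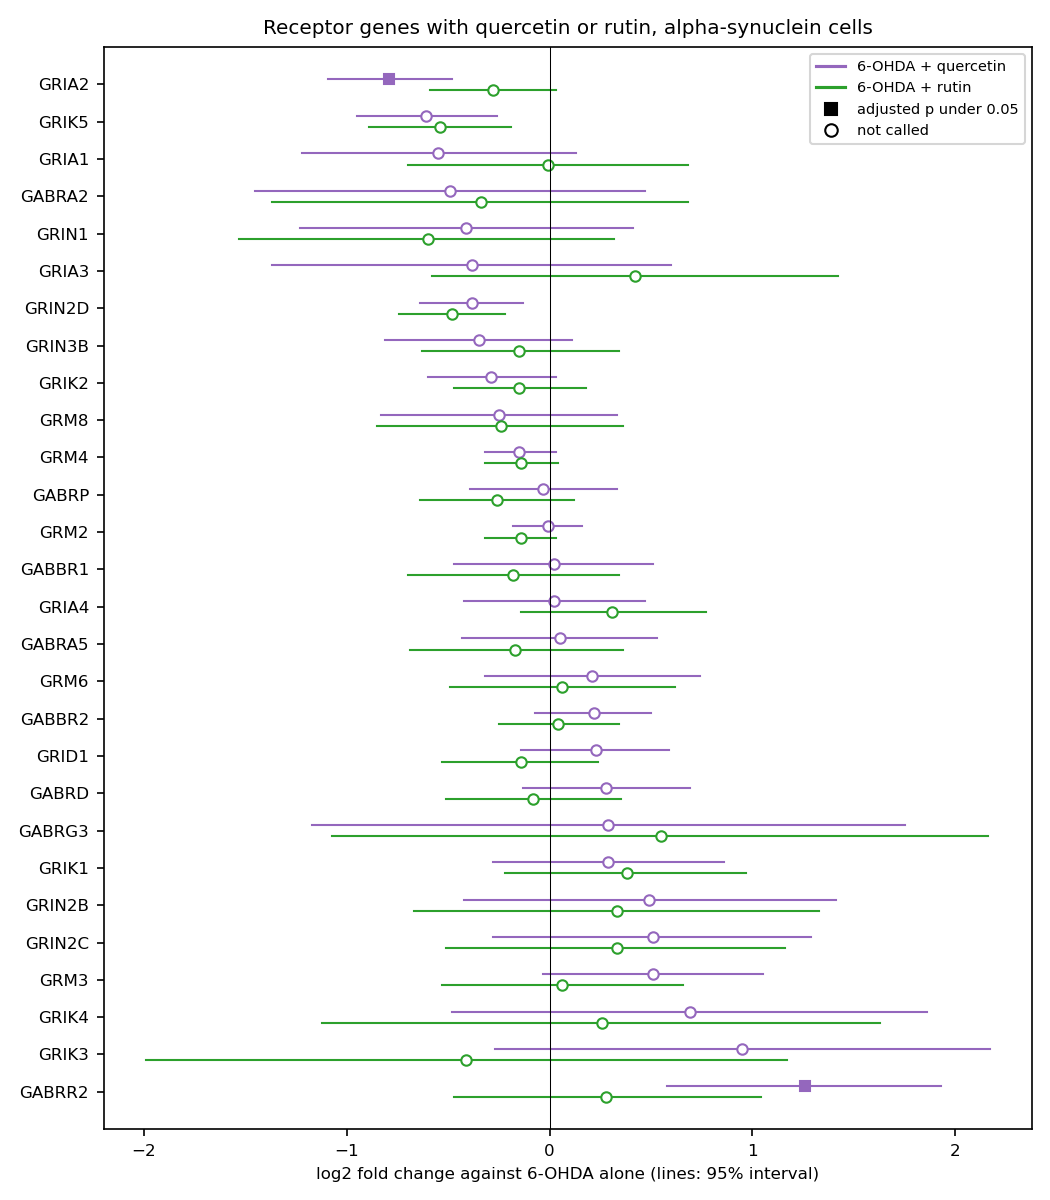
Log2 difference of 28 of the 33 tested members in alpha-synuclein cells given 6-OHDA with quercetin (purple) or rutin (green) against 6-OHDA alone; lines are 95% intervals, filled squares are calls and open circles are not. GRIA2 (-0.79) and GABRR2 (1.26) with quercetin are the 2 calls.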

How the data were processed

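The series gave 1 table of polyA RNA-seq counts per gene for 22 LUHMES libraries in 6 groups. Per the submitters' processing notes, reads were trimmed with Trimmomatic 0.38 and quantified with kallisto 0.46.2, with GRCh38 and hg38 as builds; no source used here says whether counting used strand. The values are kallisto's estimated counts, deposited by the authors as whole numbers, and were used as deposited.

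Genes were tested with edgeR 4.0.16 in R 4.3.3 (quasi-likelihood, TMM scaling, filterByExpr with a minimum count of 10, all 22 libraries in 1 fit of group means) and adjusted by Benjamini-Hochberg over all 16601 genes tested, with calls at 0.05. CPM use TMM-scaled library sizes. Intervals of log2 differences are the estimate plus or minus its SE times the t quantile of the fit. The fit was tested on simulated data with 200 changed genes. The 99.9% of gene IDs found in GENCODE 29, all 45 members among them, gave positions and transcript lengths. Pairs of replicates differed by more than sampling noise (chi-square per degree of freedom 2.87 to 26.2), so none was counted as a repeat.

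The rule for named genes was every member by symbol. Those called were given in full, up to the 8 of smallest adjusted p in each 6-OHDA comparison, along with the 4 of smallest adjusted p per partner list, and further members as space allowed. Members and lists were chosen with earlier results of these data known. Alternatives were DESeq2 1.42.0, its size factors, library totals alone, no low-count filter, only the groups compared, a replicate block, each library left out in turn, and both libraries whose names carry several barcode numbers (untreated alpha-synuclein replicates 3 and 4) left out. Some genes are not reported here by name, although they enter the fits and the counts of members and list genes.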

Additional observations from a re-analysis of the deposited data

Results flagged for a closer look

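In 3 of 132 member and group sets of 4 libraries checked, 1 library stood far from the other 3; chance gives about 1 in 20. GRIA4 was at 10.2 CPM in replicate 3 of wild-type cells with 6-OHDA, against 7.55 to 7.94 CPM in the others. In untreated wild-type cells GABRA2 was at 1.30 CPM in replicate 4 and GRIN2B at 1.47 CPM in replicate 1, each against 0.187 to 0.364 CPM in the others.

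For 4 members the 6-OHDA difference itself differed between genotypes by the interaction test in edgeR: GRIA2 (1.05 ± 0.20, adjusted p 0.00117), GRM4 (-0.51 ± 0.11, adjusted p 0.00339), GRIN2D (-0.64 ± 0.16, adjusted p 0.00632) and GRIK2 (0.79 ± 0.21, adjusted p 0.00883). Positive values mean a smaller fall in alpha-synuclein cells. Lane and interaction cannot be told apart here.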

How the results depend on the processing

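No called member changed direction under an alternative. Scaling with DESeq2's size factors in edgeR changed no count of called members. Leaving out each library in turn gave 15 to 18 called members for 6-OHDA in wild-type cells, 16 to 22 in alpha-synuclein cells, 0 to 2 for alpha-synuclein in untreated cells, 3 to 8 for alpha-synuclein in 6-OHDA cells, 4 to 5 for the interaction, 0 to 4 for quercetin, 0 to 1 for rutin and 0 for quercetin against rutin. The call of GRIA3 with 6-OHDA in alpha-synuclein cells was kept in 17 of these 22 fits, GRIN2C in 17, GRIK2 in 17 and GRM3 in 13. With only the groups compared in the fit, alpha-synuclein in 6-OHDA cells gave 3 called members instead of 6, and quercetin 0 instead of 2. DESeq2 gave 1 for alpha-synuclein in untreated cells and 2 for rutin, both 0 in edgeR. Without both libraries of several barcode numbers, an alternative chosen after seeing the data, quercetin gave 1. With 10 counts as the minimum, 20 members instead of 32 were detected in alpha-synuclein cells with 6-OHDA and 19 instead of 30 with rutin. The causes were not tested.

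Replicate numbers did not pair the libraries: over 51 pairs of the same number, deviations correlated at -0.138 to 0.0776. With a replicate block, called members numbered 15 and 19 for 6-OHDA in wild-type and alpha-synuclein cells, 0 for alpha-synuclein in untreated cells, 5 in 6-OHDA cells, 4 for the interaction, 1 for quercetin (GRIA2, while GABRR2 lost its call), 0 for rutin and 0 for quercetin against rutin.

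Over all genes, quercetin gave 420 calls, against 2 with only the groups compared, 120 with the block, 230 without the libraries of several barcodes and 969 with DESeq2. Rutin gave 0, against 2 with DESeq2's size factors, 4 with no filter and 285 with DESeq2. Alpha-synuclein in untreated cells gave 108, against 11 without the libraries of several barcodes, 23 with only the groups compared and 230 with DESeq2. The interaction gave 3594, against 1978 without those libraries. Quercetin against rutin gave 1, against 8 with no filter, 19 with only the groups compared, 28 by library totals, and 77 upward and 39 downward with DESeq2. Depth limits the rarer members: in the shallowest library 3 counts are 1.49 CPM.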
